A study of Drosophila melanogaster with 16 samples.

Results

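The transcripts of 10 Polycomb group genes were followed in neuroblasts (NBs), the stem cells of the fly larval brain, and in their ganglion mother cells (GMCs), of which each NB division buds off 1, smaller than the NB itself. The 10 genes, chosen by name as core subunits of the Polycomb complexes, were E(z), esc, Su(z)12, Pc, ph-p, ph-d, Psc, Su(z)2, Sce and Scm. They were taken out of 16364 genes counted in each of 16 libraries of poly(A) RNA. All 10 passed the filter on low counts that left 10913 genes for testing. Every animal carried UAS-dcr2, the ase-GAL4 driver and the nuclear reporter UAS-stinger::GFP, a background that the labels call wild type. The ase-GAL4 driver is active in the type I lineage, the common kind of NB whose GMCs divide once into neurons or glia, and NBs sorted from brains of wandering larvae were kept in culture and then separated, in another sort, from the GMCs they had formed. The culture time gives the 3 ages compared, 1.5 h (3 NB and 3 GMC libraries), 3 h (3 NB and 2 GMC) and 5 h (3 NB and 2 GMC). No group lacks the transgenes, and how many brains each library pools was not given in the sources used here.

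Polycomb group proteins keep genes silent through cell division by acting on chromatin in large complexes. Polycomb repressive complex 2 (PRC2) methylates a lysine of histone H3, and Polycomb repressive complex 1 (PRC1) reads that mark, compacts nucleosomes and ubiquitylates histone H2A. In the fly nervous system the complexes are best known for keeping Hox genes off outside their proper segments, and larval NBs that lose Polycomb function are lost after Hox genes become active in them.

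Library depth ran from 6899670 to 21207182 counts in genes. Levels are given as CPM (counts over the TMM-scaled library size), and a gene was called changed at a Benjamini-Hochberg adjusted p under 0.05 in edgeR's quasi-likelihood test across all genes tested. The labels do not say that replicates came from separate cultures or sorts, so the p-values measure a spread between libraries that may be technical. In bulk RNA, fewer cells of a type and less RNA per cell cannot be told apart. The cell labels were checked against markers: dpn, an NB transcription factor, averaged 130.1 to 234 CPM in NB groups and 40.5 to 102 CPM in GMC groups, and elav, a neuronal RNA-binding protein, 238 to 426 and 626 to 5216 CPM. The GMC determinant pros averaged 496 to 784 CPM in NBs and 5743, 2436 and 1186 CPM in GMCs of 1.5, 3 and 5 h. Of the synaptic genes, brp averaged 51.9 CPM in 1.5 h GMCs and 7.94 CPM in 5 h GMCs, below the 13.6 CPM of 5 h NBs, and nSyb and Syt1 likewise had lower means in GMCs than in NBs at 5 h, with no call. The NB markers ase and wor went against their label, being called higher in GMCs at 3 h and at 5 h. The first NB replicate of 5 h stood at 12.5 on the second principal component where its 2 partners stood at 36.1 and 32.6, and the 5 h differences that it moved are also given without it. The first NB replicate of 3 h stood at -30.2 on the first component (partners -19.5 and -18.8) and at -13.2 on the second (-1.50 and 2.37). Of its tally 17.75% fell in no gene feature, the most of any library. By the file names each age was on its own flow cell, so age and sequencing run cannot be told apart, while NBs and GMCs of 1 age shared a flow cell.

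The differences that passed the test between GMCs and NBs were all in PRC1 genes and Scm, and all were higher in GMCs, while none of the 3 core PRC2 genes was called at any age in edgeR's fit of all libraries. At 1.5 h, 4 of the 10 genes were called higher in GMCs (ph-p, ph-d, Su(z)2 and Scm) and 0 lower, where 8.59% of all genes tested were called higher and 8.97% lower. At 3 h, 4 were called higher (ph-p, ph-d, Psc and Scm) and 0 lower, against 10.2% and 10.5% of all genes. At 5 h, 6 were called higher (Pc, ph-p, ph-d, Psc, Sce and Scm) and 0 lower, against 14.8% and 14% of all genes. Without the first NB library of 5 h, which stood apart, the 5 h counts were 4 higher (ph-p, ph-d, Sce and Scm) and 1 lower (esc). Without the first NB library of 3 h, Sce was called higher at 3 h in addition (adjusted p = 0.0290). The median log2 difference of the 10 genes, GMC over NB, was 0.31 at 1.5 h, 0.80 at 3 h and 0.87 at 5 h, beside 0.036, 0.067 and -0.12 over all genes tested. None was called lower in that fit, although esc had an unadjusted p of 0.0302 at 3 h and 0.0480 at 5 h, and DESeq2 called it lower at 3 h (adjusted p = 0.0349), as did edgeR with library sizes computed without the non-coding RNA CR43283 (adjusted p = 0.0453). A fit of only the 1.5 h groups called esc lower at that age (log2 -0.41, adjusted p = 0.0396). The CPM ranges of the cell types were separate for 6 genes at 1.5 h (4 higher, 2 lower), 9 at 3 h (7 higher, 2 lower) and 7 at 5 h (all higher), where 42.6%, 50.1% and 47.9% of all genes tested had separate ranges. The difference between the PRC1 and PRC2 groups was not itself tested.

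**Figure D1:**
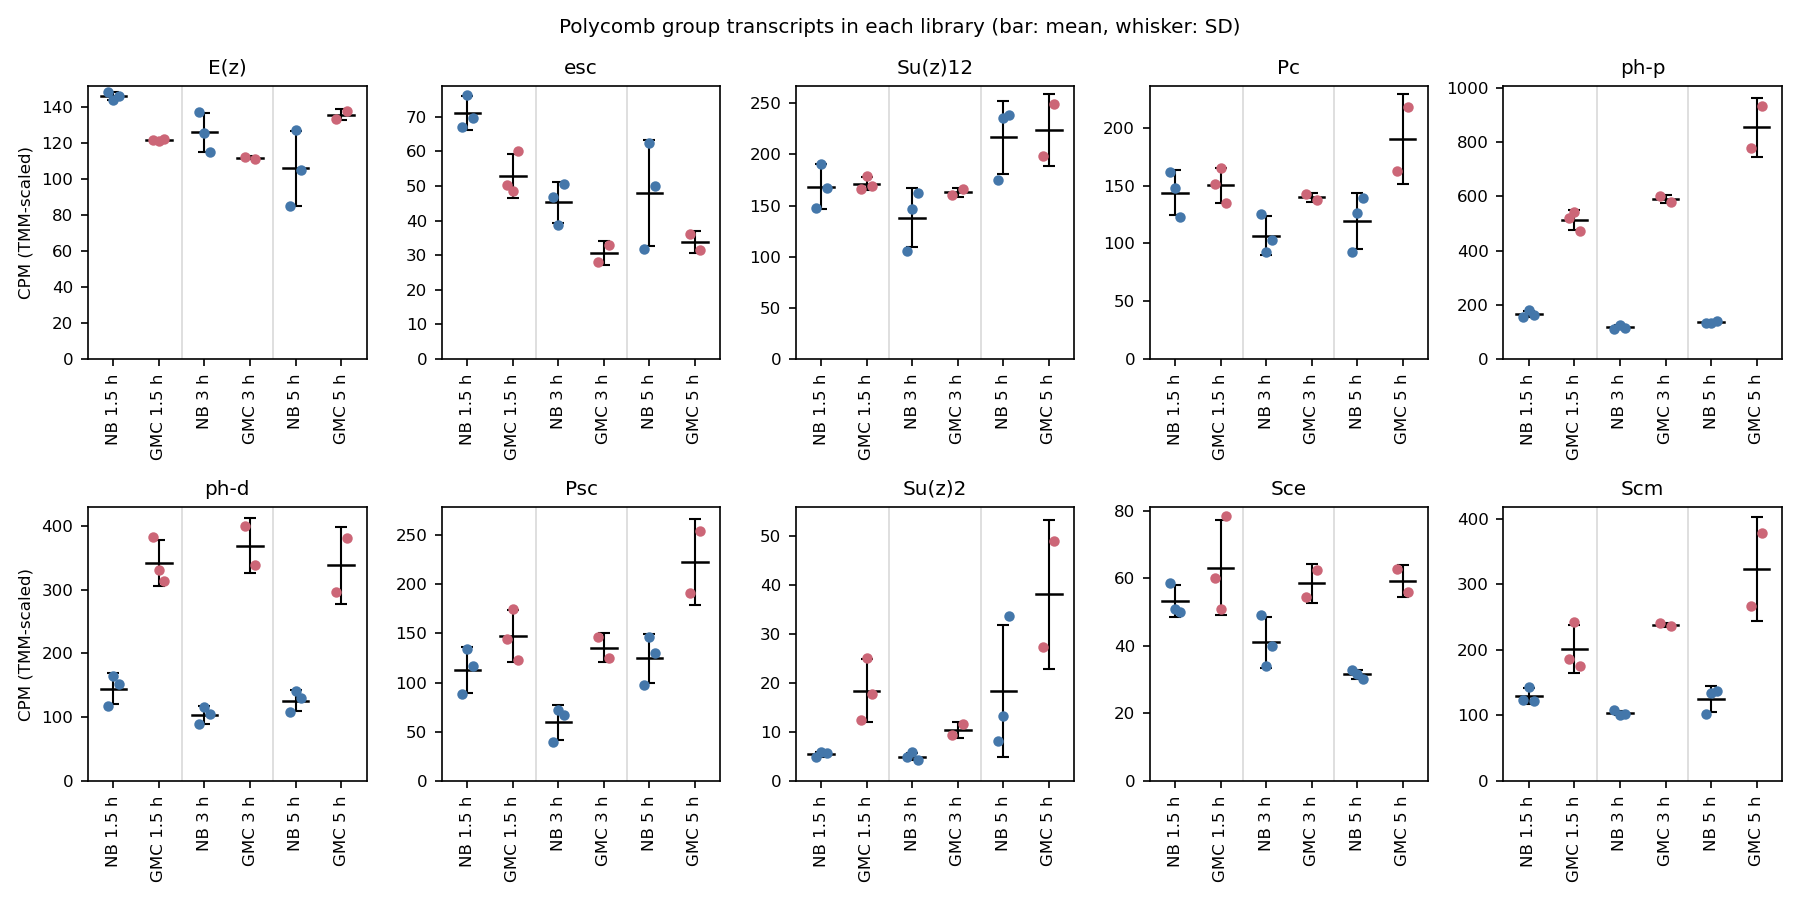
CPM (TMM-scaled) of each of the 10 genes in every library, with NB libraries in blue, GMC libraries in red, the bar at the group mean and the whisker at the SD. The GMC points of ph-p and ph-d lie above all NB points of their age, those of esc lie below them at 1.5 h and 3 h, and those of Su(z)12 lie among them.

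Transcripts of the polyhomeotic gene pair had higher levels in GMCs at each of the 3 ages. The tandem copies ph-p (FBgn0004861, chromosome X, 2126210 to 2138371, minus strand) and ph-d (FBgn0004860, chromosome X, 2115727 to 2123286, minus strand) lie 2.92 kb apart in release 6 of the fly genome and encode PRC1 subunits whose SAM domains polymerise. At 1.5 h ph-p had 156, 180 and 163 CPM for NBs, beside 522, 543 and 471 CPM for GMCs. At 3 h ph-p had 113, 126 and 114 CPM for NBs, beside 602 and 581 CPM for GMCs. At 5 h ph-p had 135, 135 and 139 CPM for NBs, beside 778 and 933 CPM for GMCs. Every GMC library lay above every NB library of its age, and the NB values stayed between 113 and 180 CPM throughout. The GMC level was 3.08-fold the NB level at 1.5 h, 5.04-fold at 3 h and 6.28-fold at 5 h, log2 differences of 1.62 ± 0.14, 2.33 ± 0.15 and 2.65 ± 0.15 (SE). The adjusted p-values were 2.19e-06, 9.43e-08 and 1.41e-08. Its difference between cell types was larger at 5 h than at 1.5 h by 1.03 ± 0.20 on the log2 scale (adjusted p = 0.00342), the 1 member called in that comparison, where 13.2% of all genes tested were called.

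The distal copy ph-d was also higher in GMCs at every age, by a smaller factor. At 1.5 h ph-d had 118, 164 and 152 CPM for NBs, beside 383, 332 and 314 CPM for GMCs. At 3 h ph-d had 88.7, 117 and 104 CPM for NBs, beside 401 and 339 CPM for GMCs. At 5 h ph-d had 107, 140.3 and 129.6 CPM for NBs, beside 296 and 381 CPM for GMCs. Again no GMC value overlapped an NB value of the same age. The log2 differences were 1.25 ± 0.18, 1.84 ± 0.19 and 1.43 ± 0.19, which are 2.37-fold, 3.58-fold and 2.69-fold, with adjusted p-values of 0.000212, 1.29e-05 and 4.38e-05. In contrast to ph-p, the ph-d difference changed from 1.5 h to 5 h by 0.18 ± 0.26 (95% interval -0.37 to 0.73), which was not called. Because the copies share long stretches of sequence, and reads that aligned to more than 1 place (21.71% to 33.42% of each library's tally) are left out of the gene counts, the level of each copy is uncertain, and the share of polyhomeotic reads lost this way is not known.

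The balance of the copies was shifted towards ph-p in every GMC library of each age. Within a library, where scaling cancels, the count of ph-p over that of ph-d was 1.33, 1.10 and 1.08 in NBs and 1.36, 1.63 and 1.50 in GMCs at 1.5 h. At 3 h the ratio of counts was 1.27, 1.08 and 1.10 in NBs and 1.50 and 1.72 in GMCs. At 5 h the ratio of counts was 1.25, 0.961 and 1.07 in NBs and 2.63 and 2.45 in GMCs. The GMC ratios lay above the NB ratios at each age, and both 5 h GMC libraries lay above all the other 14 libraries. Geometric means were 1.16, 1.15 and 1.09 in NBs and 1.50, 1.61 and 2.54 in GMCs. Exact two-sided permutation tests of the log ratio gave p = 0.1, 0.2 and 0.2, the smallest values that 3 against 3 and 3 against 2 libraries can give in this test, so p under 0.05 could not be reached. The ratio of ph-p to E(z), a PRC2 gene taken as the partner, had geometric means of 1.14, 0.936 and 1.30 in NBs and 4.21, 5.30 and 6.28 in GMCs, with the same 3 p-values. These ratios were chosen after the values of the genes were seen.

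**Figure D2:**
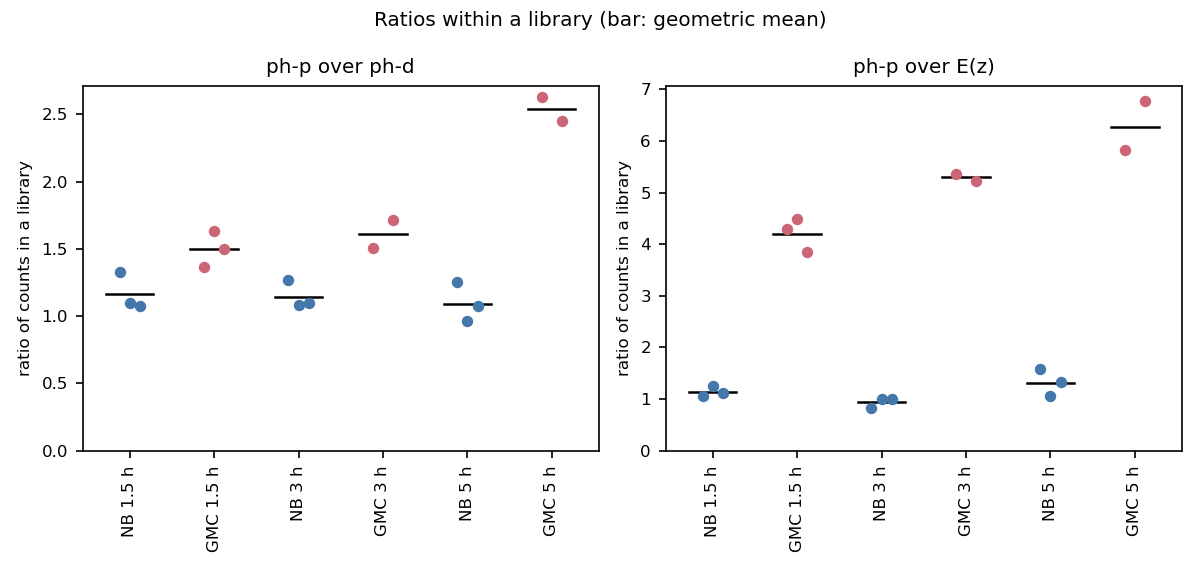
Ratio of raw counts within each library, ph-p over ph-d on the left and ph-p over E(z) on the right, with NB libraries in blue, GMC libraries in red and the bar at the geometric mean. In both panels the GMC points lie above the NB points of the same age, and the ph-p to ph-d ratio in 5 h GMCs averages 2.54.

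The paralogues Psc (FBgn0005624, chromosome 2R, 12965997 to 12980994, minus strand) and Su(z)2 (FBgn0265623, chromosome 2R, 12996501 to 13007911, plus strand) sit 15.5 kb apart and encode RING-finger proteins that compact chromatin within PRC1. At 1.5 h Psc had 87.9, 134 and 117 CPM for NBs, beside 144, 175 and 123 CPM for GMCs. At 3 h Psc had 39.3, 71.8 and 67.3 CPM for NBs, beside 146 and 125 CPM for GMCs. At 5 h Psc had 97.5, 146 and 130.1 CPM for NBs, beside 192 and 254 CPM for GMCs. The ranges overlapped at 1.5 h and separated at 3 h and 5 h, and at 3 h the NB values were the lowest of the series. Psc was 2.27-fold higher in GMCs at 3 h (log2 1.18 ± 0.26, adjusted p = 0.00383) and 1.79-fold higher at 5 h (log2 0.84 ± 0.26, adjusted p = 0.0217), while at 1.5 h the log2 difference was 0.38 ± 0.23 (adjusted p = 0.296). The 5 h call was lost without the second GMC library (adjusted p = 0.220) and without the first NB library (adjusted p = 0.0645).

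Su(z)2 was the least abundant of the 10 genes in every group. At 1.5 h Su(z)2 had 4.76, 5.79 and 5.60 CPM for NBs, beside 12.3, 25.1 and 17.6 CPM for GMCs. At 3 h Su(z)2 had 4.75, 5.77 and 4.24 CPM for NBs, beside 9.23 and 11.5 CPM for GMCs. At 5 h Su(z)2 had 8.12, 13.3 and 33.5 CPM for NBs, beside 27.3 and 48.8 CPM for GMCs. The 1.5 h and 3 h groups did not overlap, but at 5 h the third NB library exceeded the first GMC library. In GMCs of 1.5 h the gene was 3.40-fold higher than in NBs (log2 1.76 ± 0.41, adjusted p = 0.00743). The log2 differences at 3 h and 5 h were 1.08 ± 0.47 and 1.06 ± 0.44 and were not called (adjusted p = 0.116 and 0.0833). Without the third NB library the 5 h difference was 1.83 with an adjusted p of 0.00211. The 5 h difference was 0.57 without the second GMC library (adjusted p = 0.528) and 0.70 without the first NB library (adjusted p = 0.203). With a replicate block it was called at 3 h (adjusted p = 0.0443) and at 5 h (1.26, adjusted p = 0.0237). The ratio of Su(z)2 to Psc counts separated the cell types at 1.5 h (geometric means 0.0482 in NBs and 0.121 in GMCs, exact permutation p = 0.1, the smallest possible) and overlapped at 3 h and 5 h.

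Pc (FBgn0003042, chromosome 3L, 21306138 to 21318020, minus strand), whose chromodomain binds the methyl mark that PRC2 lays down, was called between the cell types at 5 h alone. At 1.5 h Pc had 161, 148 and 123 CPM for NBs, beside 151, 165 and 135 CPM for GMCs. At 3 h Pc had 125, 92.2 and 103 CPM for NBs, beside 143 and 137 CPM for GMCs. At 5 h Pc had 92.6, 126 and 139.6 CPM for NBs, beside 163 and 218 CPM for GMCs. GMC and NB values were intermixed at 1.5 h and apart at 3 h and 5 h. The log2 difference was 0.063 ± 0.18, 0.39 ± 0.20 and 0.67 ± 0.20 at the 3 ages, with adjusted p-values of 0.859, 0.196 and 0.0197. Its change from 1.5 h to 5 h was 0.61 ± 0.27 and was not called (adjusted p = 0.150). The 5 h call did not hold without the second GMC library (adjusted p = 0.266) or without the first NB library (adjusted p = 0.0572).

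Sce (FBgn0003330, chromosome 3R, 27680431 to 27682029, minus strand), the RING-finger ligase that ubiquitylates histone H2A, was 1.88-fold higher in 5 h GMCs. At 1.5 h Sce had 58.8, 51.1 and 50.0 CPM for NBs, beside 60.1, 50.8 and 78.6 CPM for GMCs. At 3 h Sce had 49.0, 34.0 and 40.1 CPM for NBs, beside 54.4 and 62.6 CPM for GMCs. At 5 h Sce had 32.8, 31.6 and 30.3 CPM for NBs, beside 62.7 and 55.8 CPM for GMCs. The groups overlapped at 1.5 h and not at 3 h or 5 h, and the 3 NB libraries of 5 h were the lowest of all 16. The log2 difference was 0.25 ± 0.18 at 1.5 h (adjusted p = 0.396), 0.52 ± 0.20 at 3 h (adjusted p = 0.0823) and 0.91 ± 0.20 at 5 h (adjusted p = 0.00268). The 3 h difference was called without the first NB library (0.66, adjusted p = 0.0290) and with the gene-length trend removed (0.61, adjusted p = 0.0215). It was 0.40 without the second NB library (adjusted p = 0.226), and no other setting or left-out library gave a call. GMC means stayed between 58.5 and 63.2 CPM, whereas NB means went from 53.3 to 31.5 CPM.

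Scm (FBgn0003334, chromosome 3R, 9633359 to 9637611, minus strand) encodes a SAM-domain protein that binds polyhomeotic and links PRC1 with PRC2. At 1.5 h Scm had 124, 143 and 122 CPM for NBs, beside 186, 243 and 175 CPM for GMCs. At 3 h Scm had 107, 101 and 102 CPM for NBs, beside 240 and 236 CPM for GMCs. At 5 h Scm had 101, 134 and 137 CPM for NBs, beside 267 and 379 CPM for GMCs. At each age all GMC libraries exceeded all NB libraries. Scm was 1.55-fold higher in GMCs at 1.5 h, 2.31-fold at 3 h and 2.60-fold at 5 h, log2 differences of 0.64 ± 0.17, 1.21 ± 0.19 and 1.38 ± 0.19 with adjusted p-values of 0.0174, 0.000351 and 5.42e-05. The 1.5 h call was lost without the second GMC library (adjusted p = 0.101) and without the first or the third NB library (adjusted p = 0.0680 and 0.0696). Its change from 1.5 h to 5 h, 0.74 ± 0.26, had an adjusted p of 0.0659. That change was called with DESeq2 (adjusted p = 0.0293), with a replicate block (0.0420), after removal of the gene-length trend (0.0302), with library sizes computed without CR43283 (0.0456), and without the second 1.5 h or the first 5 h GMC library (0.0413 and 0.0455). Without the second 5 h GMC library it was 0.48 (adjusted p = 0.342). 7.74% of the Scm exon bases overlap the gene SpdS, and whether the counting used strand was not given in the sources used here.

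E(z) (FBgn0000629, chromosome 3L, 10634575 to 10638130, minus strand), the PRC2 methyltransferase itself, was not called between the cell types at any age. At 1.5 h E(z) had 148, 144 and 146 CPM for NBs, beside 121, 121 and 122 CPM for GMCs. At 3 h E(z) had 137, 125 and 115 CPM for NBs, beside 112 and 111 CPM for GMCs. At 5 h E(z) had 85.2, 127 and 105 CPM for NBs, beside 134 and 138 CPM for GMCs. Both younger ages had every GMC library below every NB library, and at 5 h the order was turned, with both GMC libraries above all 3 NB libraries. The log2 differences were -0.27 ± 0.15, -0.17 ± 0.16 and 0.36 ± 0.16 (adjusted p = 0.243, 0.522 and 0.112), with 95% intervals of -0.58 to 0.042, -0.52 to 0.18 and 0.014 to 0.70. The 5 h difference was called with DESeq2 (adjusted p = 0.0342), with library sizes computed without CR43283 (adjusted p = 0.0398) and without the second NB library (adjusted p = 0.0277). Without the first NB library, which stood apart, it was 0.22 (adjusted p = 0.286), and it was not called under the other 5 alternative settings. The change from 1.5 h to 5 h was 0.62 ± 0.22 with an adjusted p of 0.0684, and 0.49 without the first NB library of 5 h (adjusted p = 0.107). GMC means ran from 112 to 136 CPM, and NB means from 146 CPM at 1.5 h to 106 CPM at 5 h.

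The WD40-repeat subunit esc (FBgn0000588, chromosome 2L, 11827204 to 11829405, minus strand), which PRC2 needs for its enzyme activity, had lower GMC than NB means at all 3 ages. At 1.5 h esc had 67.0, 76.4 and 69.6 CPM for NBs, beside 50.2, 48.4 and 60.0 CPM for GMCs. At 3 h esc had 46.7, 38.8 and 50.4 CPM for NBs, beside 28.1 and 33.0 CPM for GMCs. At 5 h esc had 31.7, 62.3 and 49.9 CPM for NBs, beside 36.1 and 31.5 CPM for GMCs. The groups did not overlap at 1.5 h and 3 h, while at 5 h the first NB library lay at the level of the GMC libraries. The log2 differences of -0.42 ± 0.21, -0.56 ± 0.24 and -0.50 ± 0.24 were not called (adjusted p = 0.179, 0.106 and 0.123). Without the first NB library, which stood apart, the 5 h difference was -0.73 and was called (adjusted p = 0.00964), and without the second NB library it was -0.27 (adjusted p = 0.388).

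Su(z)12 (FBgn0020887, chromosome 3L, 19918242 to 19923462, minus strand), a zinc-finger subunit that holds PRC2 together, had the smallest log2 differences of the 10 genes at 1.5 h and 5 h, and was not called at any age. At 1.5 h Su(z)12 had 147, 191 and 168 CPM for NBs, beside 166, 179 and 169.5 CPM for GMCs. At 3 h Su(z)12 had 106, 147 and 162 CPM for NBs, beside 159.9 and 166 CPM for GMCs. At 5 h Su(z)12 had 175, 236 and 239 CPM for NBs, beside 199 and 249 CPM for GMCs. NB and GMC values overlapped at every age. The log2 differences were 0.024 ± 0.18, 0.23 ± 0.20 and 0.048 ± 0.20, with 95% intervals of -0.35 to 0.40, -0.18 to 0.65 and -0.37 to 0.47.

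**Figure D3:**
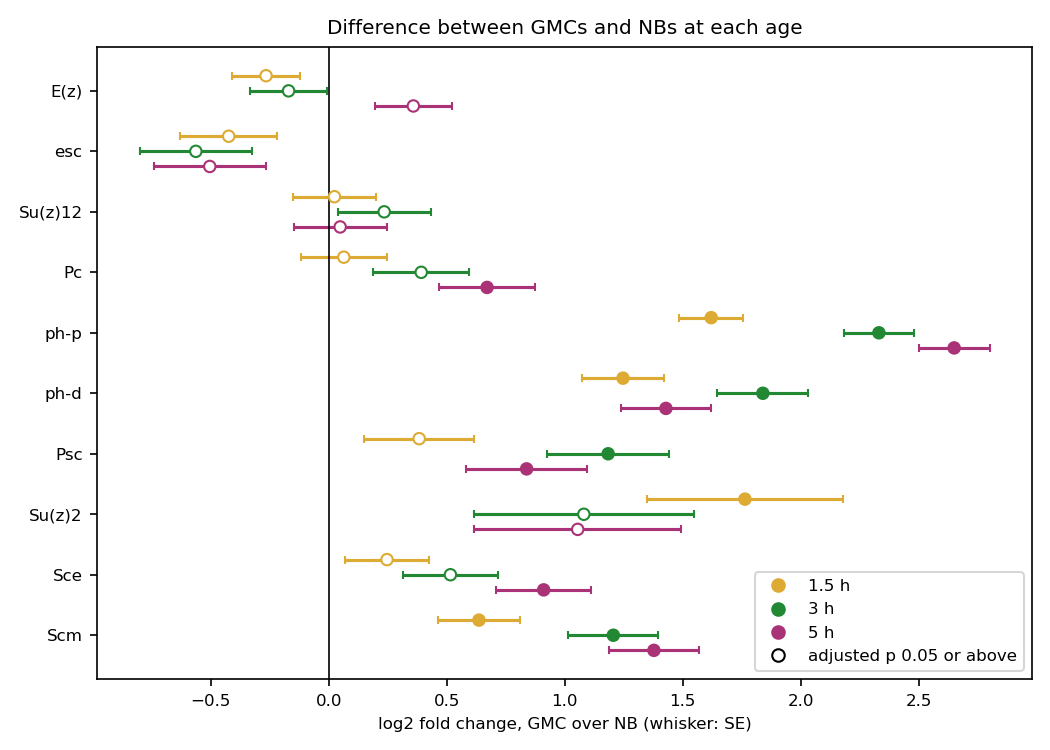
Log2 fold change of GMCs over NBs for each of the 10 genes at 1.5 h (yellow), 3 h (green) and 5 h (purple), with whiskers of 1 SE and filled points for an adjusted p under 0.05. The 3 PRC2 genes at the top have open points at every age, and ph-p reaches 2.65 at 5 h.

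In the authors' deposited table of DESeq2 results, the same 4 members at 1.5 h had adjusted p-values under 0.05. At 3 h that deposited table also had esc under the threshold (adjusted p = 0.0362), and at 5 h E(z) (adjusted p = 0.0324), both beside the members called here. For ph-p the authors' deposited table gives log2 fold changes of 1.61, 2.25 and 2.64.

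Levels of the 10 genes were compared with each other per kilobase of exon. In 1.5 h NBs Pc (58.5 ± 7.99 CPM per kb, SD, n = 3) and E(z) (54.8 ± 0.821) had the highest levels, followed by esc (41.7 ± 2.85) and Su(z)12 (41.2 ± 5.33). Sce (34.5 ± 3.12), Scm (31.8 ± 2.91), ph-p (24.2 ± 1.80), ph-d (23.6 ± 3.94) and Psc (17.9 ± 3.68) came next, and Su(z)2 (0.801 ± 0.0811) was last. Of neighbours in that order, E(z) and esc, Scm and ph-p, and Psc and Su(z)2 were farther apart than their SDs, and the mean ± SD ranges of the other neighbours overlapped. In 5 h GMCs ph-p was first at 124 ± 15.9 CPM per kb (n = 2), beyond the SD of Scm (79.3 ± 19.5), which overlapped Pc (77.3 ± 15.9). After them ph-d (55.3 ± 9.81), Su(z)12 (54.6 ± 8.60) and E(z) (50.9 ± 1.15) overlapped one another (and ph-d and Su(z)12 each also overlapped Pc and Scm), as did Sce (38.4 ± 3.15) and Psc (35.2 ± 6.97), while esc (19.8 ± 1.92) and Su(z)2 (5.67 ± 2.27) each stood below the gene before them. In 1.5 h NBs ph-p stood at rank 7 and esc at rank 3, and in 5 h GMCs at ranks 1 and 9. In 1.5 h GMCs the same genes were at ranks 1 and 8, and in 5 h NBs at ranks 8 and 5. Over all 10 genes the summed level was 816 to 1237 CPM in NB libraries and 1665 to 2687 CPM in GMC libraries. That sum is not scaled by exon length and leans on ph-p and ph-d. At 1.5 h these averaged 166 and 144 CPM in NBs, beside 512 and 343 CPM in GMCs. The sum does not stand for a rise in each gene, as esc means were lower in GMCs.

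Changes with age within a cell type were fewer, and age cannot be told apart from sequencing run. From 1.5 h to 3 h, 0 of the 10 genes were called by edgeR in either cell type, where 0.0733% of all genes were called higher and 0.0275% lower in NBs and 1.32% and 1.64% in GMCs. At an unadjusted p under 0.05 there were 5 members in NBs and 1 in GMCs, beside 1623 and 2234 of all 10913 genes tested. DESeq2 called 2 members in NBs and 1 in GMCs. The 2 members in NBs were ph-p and Psc, both lower at 3 h (DESeq2 log2 -0.44 and -0.86). Over all genes DESeq2 called 148 higher and 77 lower in NBs, and 406 and 514 in GMCs. The difference between the cell types changed from 1.5 h to 3 h for 0 members by edgeR or DESeq2, where edgeR called 0% of all genes tested. At an unadjusted p under 0.05 in edgeR's test that change had 4 members, beside 683 of all 10913 genes.

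From 1.5 h to 5 h, 2 members were called in NBs and 3 in GMCs. In NBs Su(z)2 was higher at 5 h (log2 1.77 ± 0.42, adjusted p = 0.0129) and Sce lower (log2 -0.76 ± 0.18, adjusted p = 0.0149), where 7.28% of all genes were called higher and 4% lower. Without the third 5 h library the Su(z)2 change was 0.99 (adjusted p = 0.102), and without the first 1.5 h library it was 1.68 (adjusted p = 0.0638). The Sce call was lost without the first 1.5 h library (adjusted p = 0.0724) and without the third 5 h library (adjusted p = 0.0676). In GMCs ph-p rose by 0.74 ± 0.15 on the log2 scale (adjusted p = 0.00135) and Scm by 0.68 ± 0.19 (adjusted p = 0.0128), and esc fell by 0.64 (adjusted p = 0.0489). Of all genes 17% were called higher and 13.3% lower in GMCs. The GMC counts of 2 members higher and 1 lower out of 10 were thus near the share of all genes. The esc call did not hold without any 1 of the 5 GMC libraries compared (adjusted p of 0.0611 to 0.265). The Scm call did not hold without the second 5 h library (log2 0.40, adjusted p = 0.257) or the third 1.5 h library (adjusted p = 0.0649). Su(z)12 was not called in either cell type, at 0.36 ± 0.18 in NBs and 0.39 ± 0.20 in GMCs.

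The members did not share 1 profile over the 6 groups. Likeness was measured as the root mean square difference of group means of log2 CPM, each gene centred on its own mean. The nearest member to ph-p was ph-d at 0.421, and 56 other genes of all 10913 tested lay nearer. For E(z) the nearest member was Pc at 0.240, with 1082 other genes of all 10913 nearer. Pc and Sce were each other's nearest member at 0.229, and Psc and Scm at 0.302. Of 4804 genes averaging 20 CPM or more, the 5 most like E(z) were Arp5, Int6, Tango7, CG9536 and Doa, at 0.0355 to 0.0483. The 5 most like Pc were mri, Cnot4, mof, BOD1 and Sap-r, at 0.0483 to 0.0710. These likenesses describe 6 means that share libraries and carry no test.

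Other parts of the Polycomb machinery were read beside the 10 genes, by lists set from their known roles. Of 5 further PRC2 subunits, 1 was called lower at 1.5 h, 2 higher and 1 lower at 3 h, and 3 higher at 5 h. For this list and those below, the shares of all genes tested were 8.59%, 10.2% and 14.8% called higher at the 3 ages. The shares called lower were 8.97%, 10.5% and 14%. The AEBP2 homologue jing averaged 249 ± 29.1 CPM in NBs (SD, n = 3), beside 1310 ± 73.9 CPM in GMCs (n = 2) at 5 h, a log2 difference of 2.40 ± 0.21 (adjusted p = 8.31e-07). Jarid2, a cofactor of PRC2, was higher by 1.12 ± 0.22 at 3 h and 1.40 ± 0.22 at 5 h (adjusted p = 0.00182 and 0.000171). The esc paralogue escl was lower in GMCs by the same test, at -0.70 ± 0.18 at 1.5 h and -0.85 ± 0.21 at 3 h (adjusted p = 0.0125 and 0.00833), which is the direction of the esc means. Caf1-55, a histone-binding subunit, was higher at 5 h by 0.51 ± 0.17 (adjusted p = 0.0327), and Pcl was not called.

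Further sets of Polycomb subunits were read at each age. Of 3 variant PRC1 genes, 0 were called at 1.5 h or 3 h by edgeR, 0 of them at an unadjusted p under 0.05, and at 5 h the demethylase Kdm2 (1.19 ± 0.21, adjusted p = 0.000415) and the RING-finger gene l(3)73Ah (0.87 ± 0.27, adjusted p = 0.0245) were higher in GMCs on the log2 scale. Both genes of the deubiquitinase complex that removes the Sce mark, calypso and Asx, were called at 5 h, at 0.73 ± 0.19 and 1.11 ± 0.25 (adjusted p = 0.00829 and 0.00260). At 3 h both had an unadjusted p under 0.05 and GMC libraries above all NB libraries, at 0.53 ± 0.19 and 0.56 ± 0.25 (adjusted p = 0.0599 and 0.122), and 0 to 2 of them were called there under the 7 alternative settings. Of the 3 genes of the DNA-binding Pho complex, phol was higher at 3 h and 5 h (1.03 ± 0.23 and 1.14 ± 0.23, adjusted p = 0.00456 and 0.00137), and pho and Sfmbt were not called.

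Among 7 factors that bind Polycomb response elements or help recruit the complexes, 4 were called higher in GMCs at 1.5 h, 5 at 3 h and 6 at 5 h, and 0 lower. Under the 7 alternative settings the 1.5 h count ran from 2, with no filter on low counts, to 5. Of all genes tested, 8.59%, 10.2% and 14.8% were called higher at the 3 ages. The median log2 difference of the 7 factors was 0.63, 1.10 and 1.15, beside 0.036, 0.067 and -0.12 over all genes. The HMG-box gene Dsp1 was at 1.24 ± 0.20, 1.93 ± 0.22 and 1.90 ± 0.22 (adjusted p = 0.000641, 2.73e-05 and 1.15e-05), and Trl, which encodes GAGA factor, at 0.76 ± 0.20, 1.30 ± 0.22 and 1.39 ± 0.22 (adjusted p = 0.0153, 0.000663 and 0.000199). At 5 h cg and Spps were at 1.09 ± 0.19 and 1.15 ± 0.21 (adjusted p = 0.000502 and 0.000682).

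Of 12 genes (the trithorax group and a histone demethylase) that oppose Polycomb silencing, 1 was called lower at 1.5 h, 4 higher and 1 lower at 3 h, and 8 higher and 1 lower at 5 h. The 3 h count of higher genes ran from 2, with the gene-length trend removed, to 7, with a replicate block, over the 7 alternative settings, and at 5 h it was 6 without the first NB library. At 5 h the bromodomain gene fs(1)h (1.66 ± 0.27, adjusted p = 0.000231), the methyltransferase Set1 (1.52 ± 0.26, adjusted p = 0.000374) and the acetyltransferase nej (1.19 ± 0.23, adjusted p = 0.000919) were higher, and the menin gene Mnn1 was lower (-1.17 ± 0.21, adjusted p = 0.000476). All genes tested had 8.59%, 10.2% and 14.8% called higher at the 3 ages. Medians of the 12 genes were 0.078, 0.66 and 0.82, beside 0.036, 0.067 and -0.12 over all genes. A list of genes with the opposite role thus had medians near those of the 10 Polycomb genes at 3 h and 5 h.

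Classical targets of Polycomb silencing, 17 of 18 tested, had 2 called higher in GMCs at 1.5 h, 2 at 3 h, and 7 higher and 1 lower at 5 h. Over all genes tested 8.59%, 10.2% and 14.8% were called higher, and 14% lower at 5 h. The target counts at 1.5 h and 3 h were thus near the share of all genes. The median log2 difference of the targets was 0.14, 0.50 and -0.039, beside 0.036, 0.067 and -0.12 over all genes. The Hox gene Antp averaged 122 ± 47.2 CPM in 5 h NBs (SD, n = 3), beside 388 ± 126 CPM in 5 h GMCs (n = 2) (log2 1.67 ± 0.32, adjusted p = 0.000878). Ubx, at 1.17 ± 0.434 CPM in 1.5 h NBs, beside 6.12 ± 5.18 CPM in 1.5 h GMCs (n = 3 each), was called at 1.5 h (adjusted p = 0.0136), and inv at all 3 ages (1.12 ± 0.37, 1.97 ± 0.40 and 1.41 ± 0.40, adjusted p = 0.0427, 0.00208 and 0.0129). Dfd was called at 3 h and 5 h from levels of at most 6.81 CPM in any group. The number of targets called higher at 5 h was between 3 and 7 under the 7 alternative settings.

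**Figure D4:**
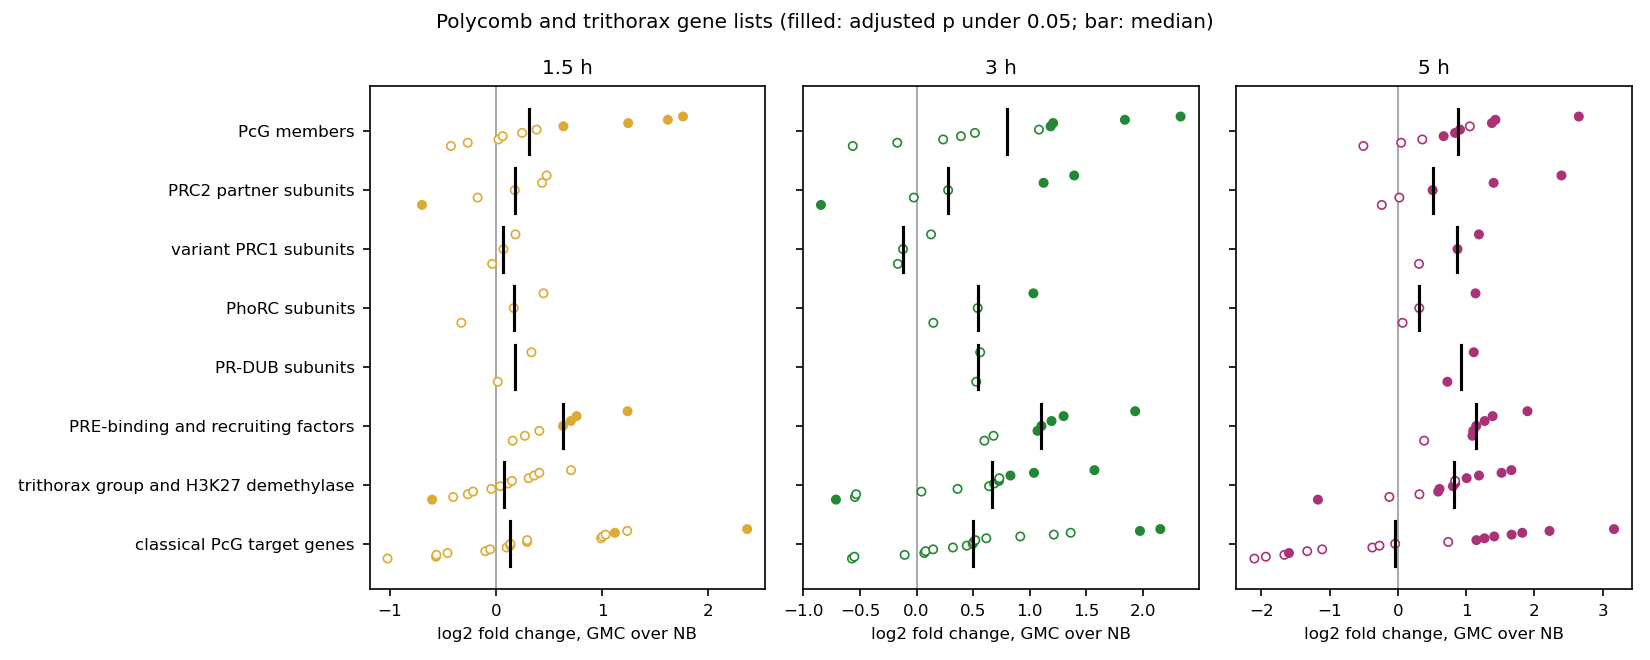
Log2 fold change of GMCs over NBs for every tested gene of the Polycomb, trithorax and target lists at 1.5 h, 3 h and 5 h, with filled points for an adjusted p under 0.05 and a bar at each list's median. At 5 h the bar of the 10 Polycomb group genes is at 0.87 and that of the targets at -0.039.

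Markers of other cells are given as summed CPM per library, in the order NBs and GMCs. Beside their calls stand the shares of all genes called higher, 8.59%, 10.2% and 14.8% at 1.5, 3 and 5 h. The shares called lower were 8.97%, 10.5% and 14%. The 7 GMC fate and neuron markers summed to 707 to 1750 in NBs and 4245 to 12850 in GMCs, with 7, 6 and 3 called higher and 0 lower at the 3 ages, and 0 to 1 called lower at 5 h under the 7 alternative settings. The 5 type II lineage markers summed to 15.1 to 25.0 and 35.8 to 91.8, with 2, 4 and 3 called higher. The 6 glia markers summed to 304 to 429.8 and 319 to 464, with 3, 3 and 2 called higher, and their defining gene repo averaged 0.936 to 3.38 CPM over the groups. The 6 hemocyte markers summed to 5.33 to 42.8 and 6.27 to 70.3, and the 4 fat body markers to 1.57 to 89.0 and 1.92 to 50.7, with the hemocyte gene Hml called lower in GMCs at 3 h and 5 h and the fat body gene Lsp2 called lower at 5 h. Pooled over ages, the summed ranges of the glia, hemocyte and fat body lists overlapped between the cell types, and those of the other 2 lists did not. Within an age, hemocyte sums were higher in GMCs at 3 h (14.58 to 27.05 and 35.28 to 70.27). They were lower in GMCs at 5 h (10.8 to 42.77 and 6.27 to 6.87). Glia sums were higher in GMCs at 5 h (307.1 to 359.8 and 368.2 to 389.8). Glia sums at 1.5 h and 3 h, hemocyte sums at 1.5 h and fat body sums at each age overlapped. Gene by gene, the glia markers had a median log2 difference of 1.87, 1.19 and 0.42 at the 3 ages. Over all genes it was 0.036, 0.067 and -0.12. The part of these cells in the Polycomb differences was not tested. The non-coding RNA CR43283 took 0.52% to 6.82% of gene counts in NB libraries and 6.94% to 27.48% in GMC libraries, and with library sizes computed without it the 4 members at 1.5 h, the 4 at 3 h and the 6 at 5 h were all still called, with esc at 3 h and E(z) at 5 h in addition.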

How the data were processed

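Whole-number counts of reads per gene, not normalized, were deposited by the authors for 16 libraries and 16364 genes, with 5 summary entries that name no gene and were left out. Per the labels' protocols, RNA was primed with oligo(dT), and tagmented libraries carried random octamers as molecular barcodes, whose use in counting was not given in the sources used here. DESeq2 1.12.4, HTSeq 0.6.1, bedtools 2.26.0, TopHat2 2.1.1 and BWA 0.7.12 are named, without their roles, in the submitters' processing notes. Genome build, annotation and strand setting were not given in the sources used here. Gene coordinates in the deposited tables equal those of release 6 (Ensembl 115) for all 10 members. The authors' deposited DESeq2 tables also hold a mean signal, log2 fold changes, a test score and p-values for GMCs against NBs at each age.

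The counts were tested in R 4.3.3 with edgeR 4.0.16 and limma 3.58.1 in 1 quasi-likelihood model that held every library as 6 groups, scaled by TMM and filtered with filterByExpr (minimum count 10, total 15), which removed 5451 genes. The common dispersion was 0.0782. P-values are two-sided and adjusted over all 10913 genes. SE is the log2 fold change over the square root of F. Groups of 2 share the spread of the other groups. Exon lengths per kb are unions over the annotation. Each gene list was described by counts and its median. The members, the lists, the tests and the alternatives were chosen with earlier results of these data known. Genes named beside the members are up to 4 per list with the smallest adjusted p among those called, fixed markers, and the 5 genes nearest to E(z) and to Pc. Alternatives were median-ratio scaling, scaling without CR43283, DESeq2 1.42.0, no filter, a replicate block, only the groups compared, a gene-length trend removed, and each library left out in turn. The test was tried on simulated data before use. No sequences are printed, as no reference sequence was used here.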

Additional observations from a re-analysis of the deposited data

Results flagged for a closer look

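The difference of ph-p between GMCs and NBs grew from 1.5 h to 5 h by 1.03 on the log2 scale in edgeR's interaction test (adjusted p = 0.00342), with all 5 GMC libraries of those ages above the NB libraries of their age. Over every alternative and every library left out it lay between 0.90 and 1.16 and was called each time.

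E(z) was lower in every GMC library than in every NB library at 1.5 h (-0.27 on the log2 scale) and at 3 h (-0.17), and higher in every GMC library at 5 h (0.36). The change from 1.5 h to 5 h was tested and not called (0.62, adjusted p = 0.0684 in edgeR), and it was called with DESeq2 (adjusted p = 0.0109), with median-ratio scaling (adjusted p = 0.0422), with scaling without CR43283 (adjusted p = 0.0456) and without the second NB library of 5 h (adjusted p = 0.0203). It was not called under the other 4 settings or with any other library left out. Without the first NB library of 5 h, which stood apart, the change was 0.49 (adjusted p = 0.107) and the 5 h difference 0.22.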

How the results depend on the processing

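The calls of ph-p and ph-d at all 3 ages, Scm at 3 h and 5 h, Psc at 3 h, Sce at 5 h and Su(z)2 at 1.5 h held under all 7 alternative settings and with each library left out. Members called at 1.5, 3 and 5 h were 4 to 5, 4 to 5 and 6 to 7 over the 7 settings, and 3 to 4, 4 to 5 and 4 to 7 with a library left out. Over all genes, 1916 were called at 1.5 h, 2255 at 3 h and 3144 at 5 h. Over the 7 settings these were 1799 to 3001, 1651 to 2851 and 2380 to 3648. With a library left out they were 1157 to 1458, 1095 to 2183 and 1742 to 3195. A fit of only the groups compared called 3001 genes at 1.5 h. Scaling without CR43283 split the calls into 1032 higher and 803 lower at 1.5 h, 923 and 1460 at 3 h and 1845 and 1319 at 5 h, beside 937 and 979, 1110 and 1145, and 1618 and 1526, and moved the median log2 difference of all genes at 3 h from 0.067 to -0.043. Members whose difference changed from 1.5 h to 5 h numbered 1 in the main fit. The count was 3 with DESeq2, 3 with the gene-length trend removed, 3 without CR43283, 2 with median-ratio scaling and 2 with the replicate block. With a library left out it was 1 to 2. Over all genes, that change was called higher for 719 and lower for 719 in the main fit. The pairs were 1133 and 1032 with DESeq2, 1163 and 808 with the length trend removed, and 859 and 707 without CR43283. Median-ratio scaling gave 862 and 743, and the replicate block 1006 and 857. For GMCs from 1.5 h to 3 h the member count of 0 became 1 with DESeq2 and 1 with only the groups compared. To 5 h the count of 3 became 5 with only the groups compared, 5 with the replicate block and 1 to 2 with a library left out. All-gene calls in GMCs to 3 h were 144 higher and 179 lower, 406 and 514 with DESeq2, and 926 and 663 with only the groups compared. To 5 h they were 1860 and 1452, 2124 and 2175 with only the groups compared, and 2063 and 1684 with the replicate block. For NBs to 3 h the member count of 0 became 2 with DESeq2 and 1 with the length trend removed. To 5 h the count of 2 became 4 with DESeq2, 5 with the length trend removed, 1 with only the groups compared and 0 to 4 with a library left out. All-gene calls in NBs to 3 h were 8 higher and 3 lower, 148 and 77 with DESeq2, and 19 and 24 with the length trend removed. To 5 h they were 794 and 437, 1181 and 743 with DESeq2, 735 and 600 with the length trend removed, and 472 and 455 with only the groups compared. The cause of these shifts was not tested.

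Small differences changed sign, none of them called. The change of the E(z) difference from 1.5 h to 3 h was -0.077 without CR43283, ph-d in GMCs from 1.5 h to 5 h was 0.0057 with DESeq2 and 0.0046 with median-ratio scaling, and Su(z)12 at 1.5 h was -0.032 with no filter. With the length trend removed, Su(z)12 was -0.031 at 1.5 h and -0.00051 at 5 h, ph-d in GMCs to 3 h -0.0062, Psc in NBs to 5 h -0.15 and Sce in GMCs to 5 h 0.14. With a library left out, the log2 differences between cell types ranged from -0.040 to 0.15 for Pc, -0.011 to 0.38 for Sce and -0.065 to 0.12 for Su(z)12 at 1.5 h, and -0.13 to 0.20 for Su(z)12 at 5 h. Their change to 3 h ranged from -0.26 to 0.028 for esc, and to 5 h from -0.31 to 0.15 for esc, -0.0020 to 0.36 for ph-d, -0.14 to 0.18 for Su(z)12 and -1.18 to 0.063 for Su(z)2. In GMCs to 3 h the ranges were -0.017 to 0.21 for ph-d, -0.24 to 0.020 for Psc and -0.24 to 0.098 for Sce, and to 5 h -0.22 to 0.15 for ph-d and -0.23 to 0.084 for Sce. In NBs to 5 h they were -0.011 to 0.29 for Psc and -0.14 to 0.066 for Scm.

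Same-numbered NB and GMC libraries deviated together with correlations of 0.20, 0.06 and 0.05 at 1.5 h, 0.14 and -0.08 at 3 h and 0.33 and 0.13 at 5 h. These correlations do not decide whether same-numbered libraries shared a culture, and the main fit took none as paired. The replicate block gave each replicate number 1 term shared by all 3 ages, so pairing within an age was not fitted. With the replicate block 2205, 2570 and 3397 genes and 4, 5 and 7 members were called at the 3 ages, the added members being Su(z)2 at 3 h (adjusted p = 0.0443) and at 5 h (adjusted p = 0.0237). Precision is limited by groups of 2 libraries and, for Su(z)2, by counts of 42 to 405 a library.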
